A study of Homo sapiens with 10 samples.

Results

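The 7 genes examined were PTGS2, NOS2, MYBL2, AURKA, STAT3, STAT5A and STAT5B, each reported elsewhere as a target or partner of nuclear HER2 or of the related receptor EGFR. They were chosen by name for those reports, out of 20090 protein-coding genes on chromosomes 1 to 22 and X. A locus was the gene body with 50 kb on each side in GRCh37 (hg19). The binding of HER2 was mapped by ChIP-exo, in which DNA held by an antibody is trimmed by an exonuclease before sequencing, in the established breast cancer lines SKBR3 and BT474, both of which carry extra copies of ERBB2, the HER2 gene. Each line was given water as the vehicle, or EGF (epidermal growth factor, 100 ng/ml), for 3 h without serum deprivation, with 1 HER2 peak list per condition and no replicate. The antibody was the same product throughout, but its lots differed between the lines. H3K4me1, a histone mark found at enhancers and around active start sites, was mapped by ChIP-seq in 2 replicates per line, in cells that the labels call asynchronous.

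HER2 is a receptor tyrosine kinase of the cell surface that pairs with EGFR and other family members, and full-length receptor has also been described in the nucleus. HER2 itself has no known DNA-binding domain, so nuclear HER2 is usually thought to reach DNA through other proteins. STAT3 and the STAT5 proteins are transcription factors that are phosphorylated downstream of receptors and kinases, enter the nucleus as dimers and bind a short palindromic site, and they have been described in complexes with nuclear receptor tyrosine kinases at promoters such as those of NOS2 and AURKA. For MYBL2 the partner described is E2F1, a factor of cell cycle entry.

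The HER2 lists held 2596 peaks in SKBR3 vehicle, 2520 in SKBR3 EGF, 8559 in BT474 vehicle and 29326 in BT474 EGF, and the depth behind them is unknown. The H3K4me1 libraries held 15636057 and 15314195 reads in islands in SKBR3 and 18714089 and 15097245 in BT474, an island being a stretch that the authors called as enriched. The positions of the genes were chr1:186640923-186650054 for PTGS2, chr17:26083792-26127555 for NOS2, chr20:42295659-42345135 for MYBL2 and chr20:54944445-54967393 for AURKA. STAT5B (chr17:40351194-40440651), STAT5A (chr17:40439565-40463961) and STAT3 (chr17:40465342-40540558) lie side by side, so their loci merged into a single stretch of 289.4 kb and are not independent of each other. The 7 loci thus formed 5 separate stretches of 814.7 kb in all.

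No HER2 peak lay in the body of any of the 7 genes in any of the 4 lists. Only a single site lay in the loci at all, downstream of MYBL2, which encodes a MYB family factor that drives genes of late cell cycle. Its reference sequence is shown because it is the only HER2 peak of these loci. The stretch is the peak of the SKBR3 vehicle list, chr20:42371677-42371923, plus strand of GRCh37, and it is all in lower case because none of the motifs sought was in it.
MYBL2 downstream site: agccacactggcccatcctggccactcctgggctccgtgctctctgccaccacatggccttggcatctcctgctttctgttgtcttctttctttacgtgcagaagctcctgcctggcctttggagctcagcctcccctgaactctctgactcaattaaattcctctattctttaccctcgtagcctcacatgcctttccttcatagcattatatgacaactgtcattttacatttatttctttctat

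The site was intergenic. It lay 26.5 kb beyond the 3′ end of MYBL2, 76.1 kb from its start site, and nearer to GTSF1L, at 16 kb. A peak covered it in SKBR3 vehicle with a score of 41, rank 902 of 2596. The SKBR3 EGF list had it at chr20:42371651-42371981 with a score of 324.5, rank 223 of 2520. The BT474 EGF list had it at chr20:42371634-42371975 with a score of 127.5, rank 4638 of 29326. In BT474 vehicle no peak lay there, and the nearest was 525 kb away. The site therefore stood higher within its list after EGF in SKBR3 and was listed after EGF alone in BT474, but scores are on an unstated scale, and without replicates no test of EGF was possible.

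The sequence of the site was searched on both strands for TCAAATTTC, reported elsewhere as associated with HER2 at the PTGS2 promoter. The STAT site TTCNNNGAA and the E2F site TTTNNCGC were sought too. So was CGTNTGC, the core of a motif that the study reported at HER2 peaks, but not at those of SKBR3 vehicle alone. Neither these nor the variant TCAAATTC nor TACGAGAT, the last 8 bases of the P7 adapter used in ChIP-exo, occurred in the peak of any of the 3 lists. TCAAATTTC was held by 0.501% of SKBR3 vehicle peaks, 0.397% of SKBR3 EGF peaks, 0.549% of BT474 vehicle peaks and 0.416% of BT474 EGF peaks. CGTNTGC was held by 8.44%, 15.9%, 19.4% and 11.8% of the peaks in the same order, so most peaks of each list lacked it too. TACGAGAT was held by 0.809%, 3.33%, 4.71% and 2.56%. A missing match says only that these letters were not in the peak. Some 48.2 to 50% of the bases were G or C, against list medians of 40.3 to 43.7%.

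**Figure D1:**
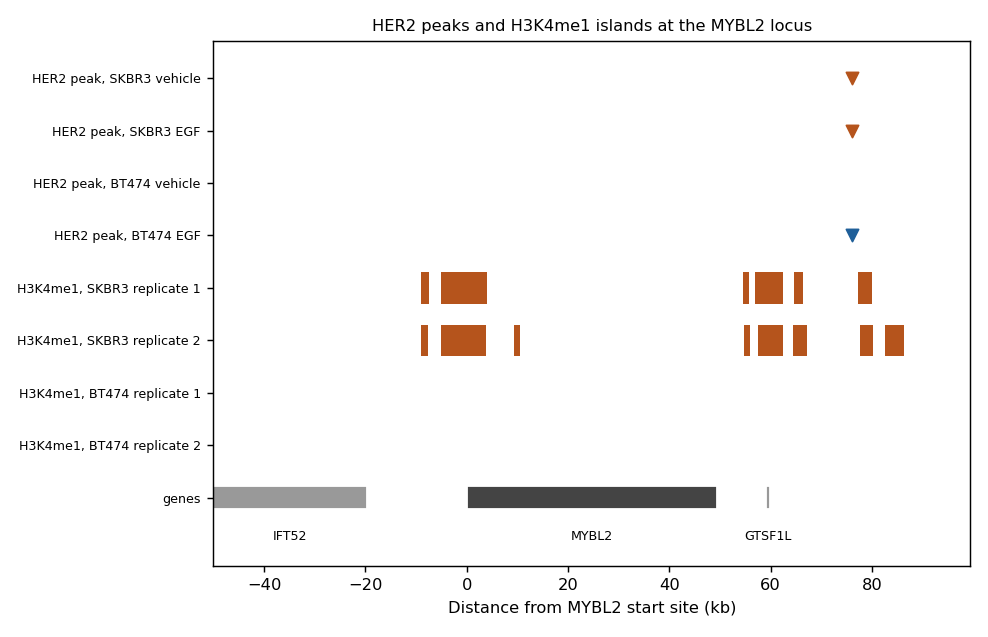
HER2 peak midpoints (triangles) and H3K4me1 islands (bars) in each list or library, against distance from the MYBL2 start site in kb. The HER2 site at 76.1 kb was listed in 3 of 4 lists, and islands at the start site were present in both SKBR3 replicates and in neither BT474 replicate.

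Counted by gene, 1 of 7 loci held a HER2 peak in SKBR3 vehicle, against 12.2% of all protein-coding loci. In SKBR3 EGF it was 1 of 7 against 13%, in BT474 vehicle 0 of 7 against 35.5%, and in BT474 EGF 1 of 7 against 72.7%. The counts in SKBR3 were thus about those of other genes, and the counts in BT474 were below them. Gene loci differ in length, so each locus was also slid along its own chromosome in steps of 10 kb. Windows as long as the 5 stretches held, summed over the stretches, a mean of 1.31 peaks in SKBR3 vehicle, 1.31 in SKBR3 EGF, 2.18 in BT474 vehicle and 7.85 in BT474 EGF, where 1, 1, 0 and 1 were listed. Windows within 5 Mb of each locus gave lower means in BT474, 1.35 for vehicle and 4.61 for EGF, and 1.32 and 1.23 in SKBR3. NOS2 was an exception to the lower local means in BT474, with 0.52 peaks per window within 5 Mb against 0.351 along the chromosome after vehicle, and 1.25 in both after EGF. A locus without a peak was common: of the windows within 5 Mb in BT474 EGF, 30.6% at NOS2, 45.3% at PTGS2, 45.4% at the STAT genes and 81.9% at AURKA had none.

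Near the start sites, 0 of 7 genes had a HER2 peak within 10 kb in any list. The share of all protein-coding genes with such a peak was 1.66% in SKBR3 vehicle, 1.97% in SKBR3 EGF, 6% in BT474 vehicle and 19.4% in BT474 EGF. With shares this low, 0 of 7 is close to what other genes had in the first 3 lists. The absence also held at 25 kb and for the start of any annotated transcript, while 0 at 5 kb follows from 0 at 10 kb.

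PTGS2 encodes cyclooxygenase-2, the inducible enzyme of prostaglandin synthesis. Its nearest HER2 peak was 546 kb from the start site in SKBR3 vehicle, 502 kb in SKBR3 EGF, 309 kb in BT474 vehicle and 280 kb in BT474 EGF. These SKBR3 distances were near the medians of all genes, 530 and 459 kb, whereas in BT474 EGF only 3.14% of genes lay farther from a peak, the median being 35.2 kb.

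The reported sequence TCAAATTTC was present upstream of PTGS2. It is shown, in capitals within its surroundings on the gene's strand (minus strand, GRCh37), because it is the site at which HER2 was reported to act, and the STAT-site matches upstream of members are shown because STAT proteins are the reported partners.
PTGS2, TCAAATTTC: actataaactTCAAATTTCagtagatgca
PTGS2, STAT site: ccgcctctctTTCCAAGAAacaaggaggg
NOS2, STAT site farther from the gene: ttcttgaggaTTCCATGAAtagcaaatag
NOS2, STAT site nearer to the gene: cttgtaaactTTCCTTGAAcaaggcagaa
AURKA, STAT site: taagcatcagTTCACTGAAtaaaatcatt
STAT3, STAT site: atgtattaggTTCATTGAAaaaaaatatg

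The TCAAATTTC match lay at chr1:186651290-186651298, 1743 bp upstream of the start of the MANE Select transcript. Among 18873 protein-coding promoters, 2.55% held this sequence on either strand within 2 kb upstream. The nearest HER2 peak to the match was 547 kb away in SKBR3 vehicle, 504 kb in SKBR3 EGF, 310 kb in BT474 vehicle and 281 kb in BT474 EGF. No list placed HER2 at the sequence. The nearest H3K4me1 island was 18.5 and 18.7 kb away in the BT474 replicates and 102 and 103 kb away in the SKBR3 replicates.

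The STAT site TTCNNNGAA occurred within 2 kb upstream of 4 members, namely NOS2, PTGS2, AURKA and STAT3. NOS2 had 2 matches, at chr17:26129408-26129416 and chr17:26129224-26129232, 1861 and 1677 bp upstream. PTGS2 had one at chr1:186650305-186650313, 758 bp upstream, AURKA at chr20:54969237-54969245, 1974 bp upstream, and STAT3 at chr17:40541626-40541634, 1174 bp upstream. It was held by 43% of all promoters of that length, so the matches do not set these genes apart. E2F matches (TTTNNCGC) occurred upstream of PTGS2, MYBL2 and AURKA, against 25.3% of promoters. The core CGTNTGC occurred upstream of 5 members (PTGS2, NOS2, AURKA, STAT3 and STAT5B), against 30.3% of promoters, and none of these matches lay under a HER2 peak.

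NOS2 encodes inducible nitric oxide synthase. Its nearest HER2 peak was 675 kb from the start site in SKBR3 vehicle, 122 kb in SKBR3 EGF, 121 kb in BT474 vehicle and 113 kb in BT474 EGF. The vehicle list of SKBR3 stood apart in kb alone, and the lists differ in their numbers of peaks. Of all genes, 43.8, 81, 50.9 and 15.2% lay farther from a peak in the same order of lists. By that share NOS2 was ordinary in SKBR3 vehicle and farthest from binding in BT474 EGF. Downstream of the start site BT474 vehicle had no peak for 5283 kb. Long runs of unknown reference bases lie within 5 Mb of NOS2, and no peak can be called in them. With windows of 10% or more unknown bases left out, 667 windows remained there, against 1000 at PTGS2. The length of this stretch is thus not read as a lack of binding.

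AURKA encodes the Aurora A kinase of the mitotic spindle and stood farthest of the 7 from BT474 binding. In BT474 the nearest peak was 2508 kb away after vehicle and 2458 kb after EGF, and only 0.383% and 0.0448% of genes lay farther. The gene sat in stretches without a peak of 7839 kb and 6978 kb in these lists. In SKBR3 the same gene had peaks at 144 and 129 kb, nearer than the median gene. In BT474 the H3K4me1 islands of the 1 Mb on each side of the AURKA locus, without the locus itself, held 2.51 and 2.55 times the library's median reads per kb of island, against 1.87 and 1.83 times in SKBR3. The authors removed regions of high input signal in each line before peaks were deposited, and the part that such regions or copy number play in this gap was not tested.

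The STAT genes had their longest stretches without a peak in SKBR3. In SKBR3 vehicle they lay in a stretch of 9690 kb without a peak, and after EGF in one of 4968 kb, whereas in both BT474 lists the stretch was 623.4 kb. The nearest peak to STAT3 was 715 kb away in SKBR3 vehicle and 294 kb in each of the other lists. For STAT5A the distances were 614 kb and 193 kb, and for STAT5B 615 kb and 194 kb, all measured to the same peaks. Set against all genes, 62.2% lay farther from a peak than STAT3 in SKBR3 EGF and 42.4% in SKBR3 vehicle, against 22.2% in BT474 vehicle and 2.87% in BT474 EGF. By that measure STAT3 was far from binding in BT474 EGF and ordinary in SKBR3. The 1 Mb on each side of the STAT stretch held 1.9 and 1.85 times the median island reads per kb in SKBR3 and 1.13 and 1.15 times in BT474, and the part of this density in the distances was not tested.

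**Figure D2:**
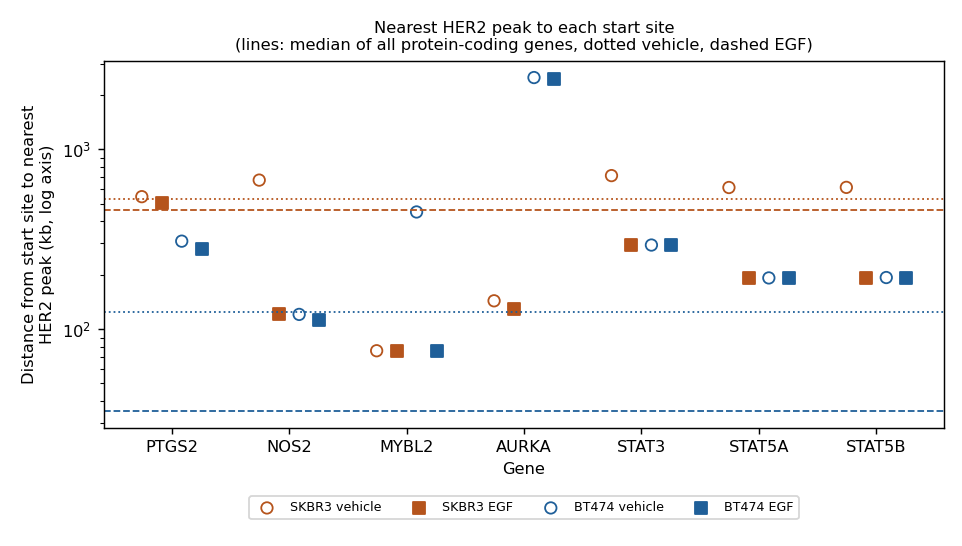
Distance in kb (log axis) from the start site of each gene to the nearest HER2 peak in the 4 lists, with open circles for vehicle, filled squares for EGF and lines for the median of all protein-coding genes. No symbol lies under 76 kb, and AURKA in BT474 is at 2508 and 2458 kb.

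The same count was made for genes of related lists. Among 11 paralogues of the members, 0 had a peak in the locus in SKBR3 vehicle, 1 in SKBR3 EGF, 6 in BT474 vehicle and 10 in BT474 EGF, and in the last list 5 had one within 10 kb of the start site, against 19.4% of all genes. These 5 were NOS1, NOS3, MYBL1, AURKC and STAT6, named after their values were seen, and the peak nearest to a start site was that of STAT6, a factor of interleukin 4 signalling, at 0.353 kb. Among 8 other reported targets the loci with a peak numbered 0, 1, 4 and 6, and a single one, MYC, had a BT474 EGF peak within 10 kb. Among 16 genes of the JAK-STAT pathway they numbered 1, 2, 7 and 11, and 2 (PIAS3 and LIFR) had a BT474 EGF peak within 10 kb. In the other lists 0 genes of any of these groups did. Over all genes the shares of loci with a peak were 12.2, 13, 35.5 and 72.7% in the same order of lists. In BT474 EGF these groups had 10 of 11, 6 of 8 and 11 of 16 and the members 1 of 7, a difference that was not tested.

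The next question was whether the loci carried the enhancer mark and whether the lines differed. The mean H3K4me1 cover of the 7 loci was 37.4% ± 4.44 in SKBR3 and 12.3% ± 0.571 in BT474 (SD, n = 2), while all protein-coding loci averaged 16.1% ± 0.541 and 15.7% ± 0.631. The higher mean in SKBR3 came mostly from the 3 adjoining STAT genes. Island reads were compared by edgeR's quasi-likelihood test with Benjamini-Hochberg adjustment over 18838 loci. Of the 5 members with islands in both lines, NOS2, STAT3, STAT5A and STAT5B were higher in SKBR3 and AURKA was higher in BT474. PTGS2 and MYBL2 had islands in one line alone, so the other line lacks a measured count and no test of them is given. Of all loci tested, 34.4% were called higher in SKBR3 and 38% higher in BT474, and among the 17430 with islands in both lines these shares were 35.7 and 34.4%, so a call alone was usual. The median log2 ratio over all tested loci was -0.11. Only reads in called islands were deposited and islands were called separately in each library, so a ratio of reads moves with the length called and is not the fold change of the mark. The p-values measure the spread between 2 samples per line.

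**Figure D3:**
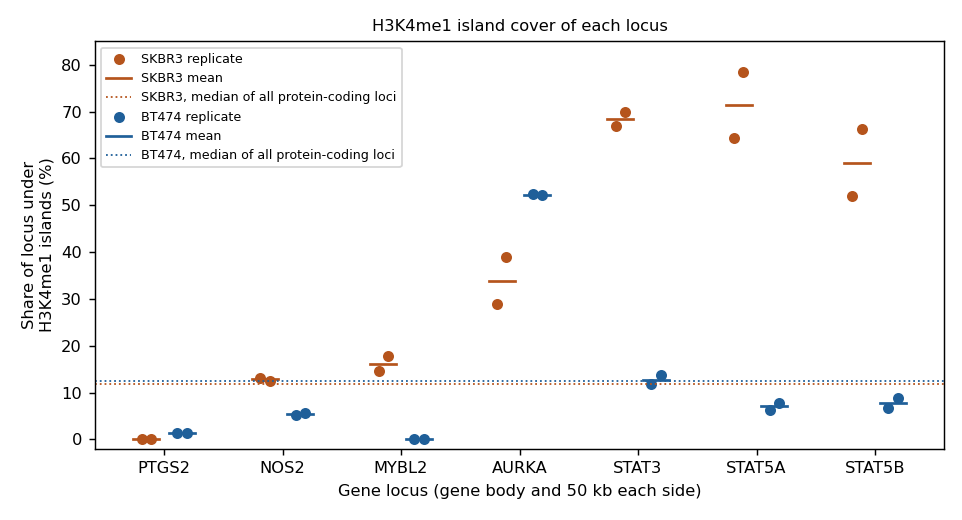
Share of each locus, in percent, under H3K4me1 islands in each replicate (points) with the mean of each line (bars) and the median of all protein-coding loci (dotted). The STAT loci lie above 50% in SKBR3 and under 14% in BT474, and AURKA is the only gene of the other four that exceeds 20%.

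STAT3 had 66.9 and 69.9% of its locus under islands in the SKBR3 replicates and 11.8 and 13.7% in those of BT474. Its island reads were 9119 and 9401 in SKBR3 and 991 and 942 in BT474. The islands summed to 117 and 122 kb in SKBR3 and 20.6 and 24 kb in BT474, so most of the difference in reads was one of called length. The log2 ratio of summed reads was 3.53 (SE 0.10, edgeR, Benjamini-Hochberg adjusted p = 7.96e-05). Of the loci with islands in both lines, 1.07% reached it. Slid along chromosome 17, 2.11 and 2.49% of windows of this length had as much cover in SKBR3, against 53.2 and 46.6% in BT474.

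STAT5A had 64.3 and 78.5% of its locus covered in SKBR3 and 6.24 and 7.85% in BT474, with 5753 and 6296 reads against 367 and 390. The called length was 80 and 97.6 kb against 7.76 and 9.76 kb, and reads per kb of island were 1.8 and 1.66 times the library median against 0.946 and 0.935 times. Its log2 ratio of 4.25 (SE 0.16) was the highest of the members that had islands in both lines (edgeR, Benjamini-Hochberg adjusted p = 0.000114), and 0.539% of loci reached it. STAT5B had 51.9 and 66.3% against 6.76 and 8.77%, and reads of 5520 and 6667 against 563 and 602. Its called length was 98.4 and 126 kb against 12.8 and 16.6 kb, and its density 1.4 and 1.37 times the median against 0.879 and 0.849 times. Its log2 ratio was 3.64 (SE 0.18; edgeR, Benjamini-Hochberg adjusted p = 0.000209). The 3 values share much of the same sequence and are a single observation rather than 3.

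Within the cluster, islands in SKBR3 covered 79 and 80.1% of the STAT3 body and 56.1 and 65.8% of the STAT5B body, but only 23.8 and 53.3% of the STAT5A body, where the replicates differed most. The island with the most reads was chr17:40496001-40521600 within STAT3, with 2974 in replicate 1, and replicate 2 had 2787 reads over chr17:40497401-40522000. The longest in replicate 1, of 27.2 kb, began 0.243 kb upstream of the STAT3 start site, at chr17:40540801-40568000, and extended over the neighbour CAVIN1. In BT474 the longest island over the 3 bodies and flanks was of 5 kb. The reads per kb of island over STAT3 were 1.95 and 1.97 times the library median in SKBR3 and 0.962 and 0.92 times in BT474. The SKBR3 islands were thus denser as well as longer. Islands in the 1 Mb on each side of the cluster were at 1.9 and 1.85 times in SKBR3 and 1.13 and 1.15 times in BT474. The density over STAT3 in SKBR3 was thus near that of its surroundings, but the cover of 66.9 and 69.9% of its locus was not. Islands covered 24 and 27.9% of the 1 Mb on each side in SKBR3 and 18 and 16.3% in BT474. The part of copy number was not tested. No HER2 peak of either line lay in the merged stretch of the STAT loci, marked or not.

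**Figure D4:**
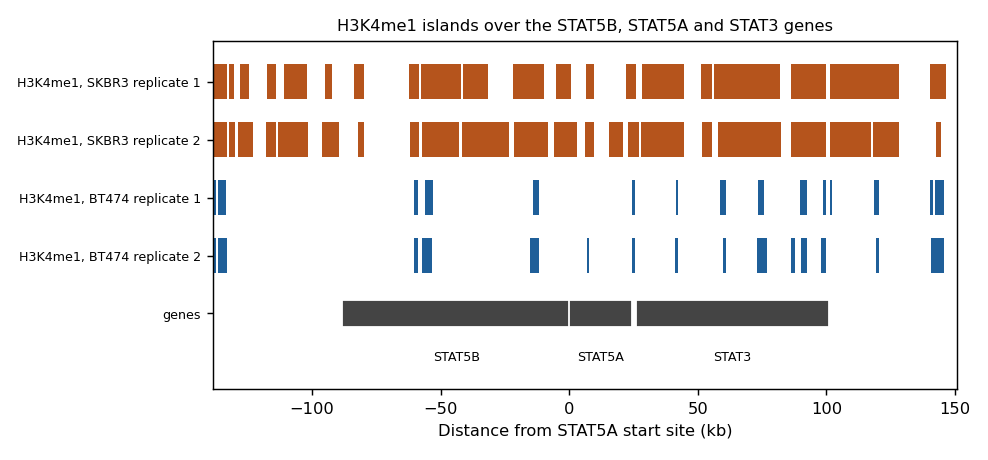
H3K4me1 islands (bars) in each replicate over the STAT5B, STAT5A and STAT3 genes, against distance from the STAT5A start site in kb. Islands fill most of the stretch in both SKBR3 replicates and are short and sparse in both BT474 replicates.

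AURKA went the other way. Its cover was 28.9 and 38.9% in SKBR3 and 52.4 and 52.1% in BT474, and its reads were 2060 and 2501 against 5877 and 4757. The called length was 35.6 and 47.8 kb against 64.4 and 64 kb, and reads per kb of island were 1.45 and 1.35 times the median against 1.83 and 1.74 times. The log2 ratio was -0.95 (SE 0.10; edgeR, Benjamini-Hochberg adjusted p = 0.00132), a size within the middle of the distribution, since 23.2% of loci were at most as high. Islands in the 1 Mb on each side were at 1.87 and 1.83 times the median in SKBR3 and 2.51 and 2.55 times in BT474. The part of this regional density or of copy number in the difference was not tested. In BT474 replicate 1 a single island of 61.8 kb, chr20:54932401-54994200 with 5721 reads, ran over FAM210B, AURKA and CSTF1. Replicate 2 had islands over 98.3% of the AURKA body, the longest of 36 kb. Of the 7 genes this was also the one farthest from a BT474 HER2 peak.

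MYBL2 had islands only in SKBR3, where they covered 14.6 and 17.8% of the locus with 940 and 1113 reads. An island of 9 and 8.8 kb spanned its start site in both replicates, with 396 and 412 reads. In BT474 no island lay in the locus, and the nearest was 177 and 182 kb from the start site. Islands in both replicates of SKBR3 with none in BT474 were a pattern of 1.27% of all loci. The HER2 site downstream lay outside any island, 1.08 and 1.48 kb from the nearest in SKBR3 for the vehicle peak and 101 and 106 kb in BT474.

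PTGS2 had no called island in its locus in either SKBR3 replicate. Both BT474 replicates had 1 island of 1.4 kb with 65 and 55 reads, downstream of the gene at chr1:186631401-186632800 in replicate 1, which was 1.28% of the locus. Islands in both BT474 replicates with none in SKBR3 were found at 5.76% of loci.

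NOS2 had 13.2 and 12.5% of its locus covered in SKBR3 and 5.15 and 5.56% in BT474, with reads of 713 and 608 against 356 and 293. The called length was 19 and 18 kb against 7.4 and 8 kb, with a density of 0.938 and 0.869 times the median against 0.962 and 0.858 times. The log2 ratio was 1.30 (SE 0.16; edgeR, Benjamini-Hochberg adjusted p = 0.00187), and 14.4% of loci reached it. With 10 kb of flank the ratio fell to 0.26 (adjusted p = 0.551), so the call rested on the outer flanks. Inside the gene both BT474 replicates had an island beginning at chr17:26118801, of 3.6 and 3.8 kb, where SKBR3 replicate 1 had one of 2.2 kb and replicate 2 none.

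At the start site itself, taken from the gene record, an island lay over 2 of 7 genes in SKBR3 replicate 1 (MYBL2 and STAT5A), against 13% of all genes. In SKBR3 replicate 2 it was 3 of 7 (STAT5B as well) against 15.1%. In BT474 replicate 1 it was AURKA alone, 1 of 7 against 18.7%, and in BT474 replicate 2 it was 0 of 7 against 17.2%. The genes named depend on the start used. At MANE Select starts, SKBR3 replicate 1 had an island over STAT5B (chr17:40428409) and none over STAT5A (chr17:40440516).

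**Figure D5:**
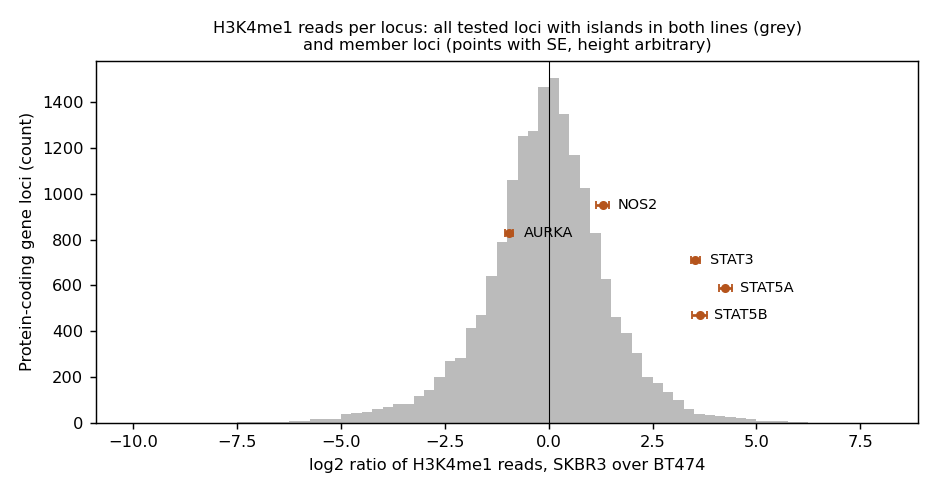
Count of protein-coding loci (grey) by log2 ratio of H3K4me1 reads, SKBR3 over BT474, for tested loci with islands in both lines, with 5 members as points and their SE (height arbitrary). STAT3, STAT5B and STAT5A lie at 3.53, 3.64 and 4.25, in the right tail, while NOS2 at 1.30 and AURKA at -0.95 lie in the body of the distribution.

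For each member the gene on another chromosome with the most similar cover in the 4 libraries was sought, by the distance in percentage points over the 4 values. It was TECRL for PTGS2, SLC22A8 for NOS2, PLG for MYBL2, PRDX5 for AURKA, VSIR for STAT3, ADIG for STAT5A and CDX1 for STAT5B. The pattern of PTGS2 was common, with 2628 genes within 5 points, and that of STAT5A was rare, with 0 genes within 5 points and ADIG 7.64 points away. STAT3 had 2 such genes, STAT5B 1 and AURKA 4.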

How the data were processed

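HER2 ChIP-exo (4 lists) and H3K4me1 ChIP-seq (4 libraries) were analysed as grouped by their labels. The 2 input samples were not analysed here. The study's methods name bowtie2, MACS2 and SICER on hg19, whereas the submitters' processing notes list BWA 0.5.9, MACS 1.4.1 and SICER 1.1. The authors removed blacklisted regions and, per line, regions of high input signal. HER2 peaks carry a score as deposited, compared within a list only. H3K4me1 islands carry a read count as deposited, unscaled. The study's text calls the H3K4me1 cells EGF-treated, which could not be settled against the labels.

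Genes came from GENCODE 44 lifted to GRCh37, and promoter and site sequence from the GRCh37 assembly. Start sites were those of the gene record, except that promoter sequence was taken upstream of MANE Select starts. Islands that crossed a locus edge gave reads in proportion to the overlap. Locus counts were tested with edgeR 4.0.16 (quasi-likelihood, TMM, R 4.3.3), 2 replicates against 2, without a block, and with DESeq2 1.42.0 as an alternative. An exact permutation test of 2 against 2 cannot go below p = 0.333, so none was used for single values. On simulated counts for 19039 loci with 200 changed 4-fold, all 200 were recovered with the right sign, and 7.41% of the calls were false. The simulation gave every locus the same dispersion and had no islands missing from single libraries. In the data 13632 of 18838 loci were called, so the simulation does not give the share of false calls there. Only called regions were listed, so a locus without one has no measured 0. PTGS2 and MYBL2 entered the fit with such zeros, and their p-values are not printed. They serve only in the counts of calls over all loci and in the tally of alternative values given at the end. Island density in the 1 Mb on each side of a locus was added after the data were seen.

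The members and gene lists were chosen with earlier results of these data known. Genes named were the 7 members, listed genes with a HER2 peak within 10 kb of the start site in at least 2 lists (there were none), and the most similar gene per member. Other named genes were chosen after their values were seen.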

Additional observations from a re-analysis of the deposited data

How the results depend on the processing

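Of 150 alternative values, 131 kept their direction and call or stayed within the spread set for them. This tally holds values that could not move, such as counts at 5 kb from start sites where 0 lay within 10 kb. It also holds values of PTGS2 and MYBL2 that rest on zeros that were not measured. Mean cover without a replicate could not move either, since each replicate always lies within the SD of 2 replicates. Small falls in the count of members called were tallied as kept, such as the loss of NOS2 with 10 kb of flank. With 10 kb of flank the HER2 site of MYBL2 falls outside the locus, so members with a peak and peaks in the loci both went to 0 in SKBR3 vehicle, SKBR3 EGF and BT474 EGF. With 100 kb of flank both counts in BT474 EGF were 2, and with equal numbers of peaks by score both were 0. The mean H3K4me1 cover was 32.5% over the gene bodies and 31.2% with the denser islands in SKBR3, and in BT474 it was 19.3% with 10 kb of flank, 19% over the gene bodies and 8.68% with the denser islands. The BT474 rise over the gene bodies came mostly from AURKA, whose body was 100 and 98.3% covered, against 52.4 and 52.1% of its locus. No other member had more than 16.5% of its body covered in BT474. The causes of these shifts were not tested. Leaving out a replicate gave 34.3 to 40.5% in SKBR3 and 11.9 to 12.7% in BT474.

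PTGS2 and MYBL2 are left out here, since their missing islands entered the fit as zeros that were not measured. The other 5 members were all called with edgeR, DESeq2, other scalings, no filter, islands by midpoint and the replicate block. With 10 kb of flank NOS2 was not called. Calls were usual in each setting, such as 14542 of 19083 loci with DESeq2 and 11158 of 17342 with 10 kb of flank. The calls of STAT3, STAT5A, STAT5B and AURKA held under all of these settings. Leaving out any single sample gave log2 ratios of 3.40 to 3.66 for STAT3, 4.05 to 4.47 for STAT5A and 3.44 to 3.87 for STAT5B. For NOS2 they were 1.16 to 1.42 and for AURKA -1.08 to -0.83. Samples with the same number did not deviate together (correlation -0.0284), so the numbers are not taken to pair them, and the replicate block gave 12020 calls over all loci against 13632. Scaling by library totals moved the median log2 ratio of all loci from -0.11 to -0.20. The depth of the HER2 lists is unknown, which limits any reading of a missing peak.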
